A study of Oryza sativa Indica Group and Oryza sativa Japonica Group with 12 samples.

Results

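The short-arm ends of rice chromosomes 11 and 12 are known to share a recently duplicated segment, and they are described here as the first 3 Mb of each chromosome in lists of chromatin loops anchored at H3K27me3. Every anchor whose middle lay less than 3 Mb from the start of chromosome 11 or 12 was taken with its loops, which gave 1194 of the 62217 anchors in the 6 lists. There were 241 of 12002 anchors in seedlings of the indica variety Minghui 63 (MH63) and 215 of 11345 in its roots. There were 209 of 9780 in seedlings of the indica variety Zhenshan 97 (ZS97) and 229 of 11997 in its roots. The wild-type japonica variety Dongjin had 191 of 10393 in seedlings, and osemf2b seedlings in the same Dongjin background had 109 of 6700. The sources used here give neither plant age nor the osemf2b allele. MH63 and ZS97 lists share one set of coordinates and Dongjin and osemf2b another, whose builds are not named, so positions were compared only within each pair of lists that shares coordinates.

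H3K27me3 is the histone mark laid down by Polycomb repressive complex 2 (PRC2), and it covers silent developmental genes in plants. EMF2b is a rice homologue of the Arabidopsis EMF2 protein, a PRC2 subunit. In ChIA-PET, chromatin is crosslinked, pulled down with an antibody and ligated, so that a paired-end tag (PET) joins sequences that lay near each other. A loop is a pair of anchors joined by PETs, and the tags of an anchor count the reads that fell on it. The shared segment of chromosomes 11 and 12 is known for pairs of genes of very similar sequence, kept alike in part by gene conversion. How reads that match both chromosomes were placed is not given in the sources used here, and its part in the values that follow was not tested. The lists hold anchors and counts only, with no sequence or genes, so the duplication itself is not visible in them.

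The 12 libraries, 2 per group, were deposited as 1 pooled list per group with 15913 to 110885 loops and 282020 to 818847 PETs. Total tags recovered from the deposited p-values were 13400000 to 51200000. With 1 list per group no test across samples was possible, and every interval given is a 95% interval for counting error only (exact Poisson for counts, exact binomial for shares and ratios), which treats PETs as independent molecules. A smaller number of cells carrying a loop and a weaker loop in every cell cannot be told apart.

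The loops that touched the starts numbered 2316 in MH63 seedlings, 1723 in MH63 roots, 3037 in ZS97 seedlings, 3121 in ZS97 roots, 2391 in Dongjin and 389 in osemf2b. They were 2.30% to 3.36% of each list's loops and held 1.23% to 2.44% of its PETs. Of the loops that touched the start of chromosome 11, 67.4% led to another chromosome in MH63 seedlings, 68.5% in MH63 roots, 78.0% in ZS97 seedlings, 76.8% in ZS97 roots, 61.1% in Dongjin and 71.7% in osemf2b. For chromosome 12 these shares were 77.8%, 75.4%, 86.6%, 82.4%, 73.1% and 85.5%. At the first 3 Mb of the other 10 chromosomes the medians were 69.1%, 66.7%, 81.1%, 75.7%, 63.9% and 70.0%. Chromosome 12 ranked 1st to 3rd of the 12 starts by this share and chromosome 11 6th to 10th. Most of the loops were thin, since 53.6% to 67.7% of them held 2 PETs, the fewest that a listed loop has.

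**Figure D1:**
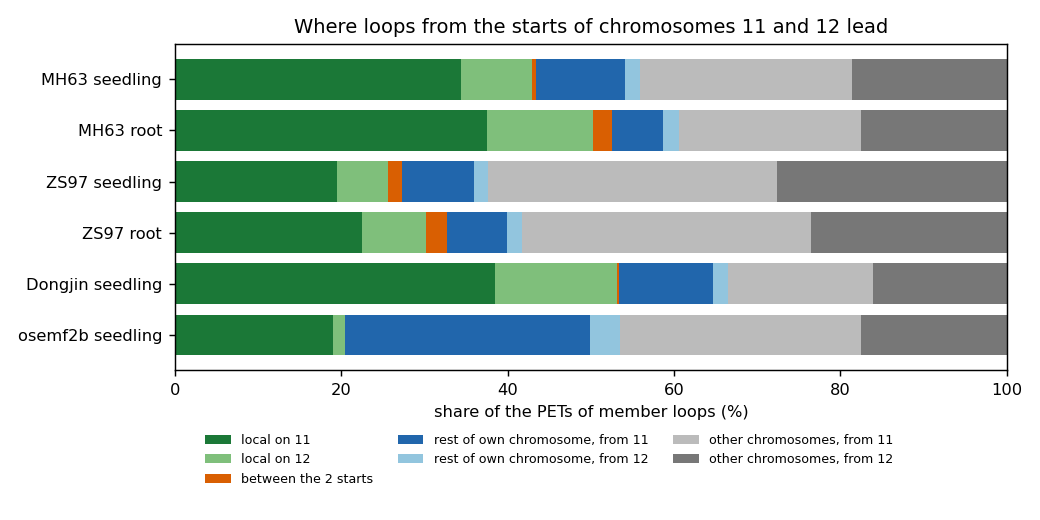
Share of the PETs of all loops touching the first 3 Mb of chromosomes 11 and 12 (horizontal axis, %) by where the loops led, with 1 bar for each of the 6 lists. Local loops took 42.9% and 50.2% in MH63 and 53.1% in Dongjin, but 20.5% in osemf2b, where loops to the rest of the own chromosome took 33.0%.

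Local loops, with both anchors in the same start, were more numerous on chromosome 11 than on chromosome 12 in every list. MH63 seedlings had 286 on chromosome 11 and 139 on chromosome 12, and MH63 roots had 231 and 135. ZS97 seedlings had 188 and 105, and ZS97 roots 226 and 144. Dongjin had 336 and 198. In osemf2b there were 45 and 12. The gap was wider in PETs than in loops. Local PETs on chromosome 11 were 4.06 times those on chromosome 12 in MH63 seedlings (3.76 to 4.38), 2.96 times in MH63 roots (2.76 to 3.17), 3.21 times in ZS97 seedlings (2.95 to 3.49) and 2.92 times in ZS97 roots (2.69 to 3.17). They were 2.62 times as many in Dongjin (2.49 to 2.76) and between 9.88 and 17.5 times in osemf2b. Tags moved with these counts: the anchors of chromosome 11 held 1.68 to 2.88 times the tags of those of chromosome 12. PETs per 1000 tags were higher on chromosome 11, at 25.4 against 14.2 in MH63 seedlings and 26.0 against 16.6 in Dongjin. When the PETs of each loop were set against its anchors' tags multiplied together and divided by total tags, the order was the opposite in all 6 lists. Summed over local loops, this quotient of PETs over tags was 29.1 on chromosome 11 and 79.7 on chromosome 12 in MH63 seedlings, 27.9 and 41.7 in MH63 roots, 12.2 and 39.0 in ZS97 seedlings and 46.3 and 89.2 in ZS97 roots. It was 29.2 and 74.6 in Dongjin and 6.29 and 21.7 in osemf2b. The quotient covers listed loops only, and the deposited p-values that decide the listing follow the same product of tags. With at least 2 PETs per loop, anchors with few tags enter only at a high quotient. The quotient therefore cannot show strength per tag apart from this selection. The part of the tags in the gap was not tested.

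Among the first 3 Mb of all 12 chromosomes, neither start led. By local loops, chromosome 11 ranked 6th in MH63 seedlings, 7th in MH63 roots, 6th in ZS97 seedlings, 8th in ZS97 roots, 5th in Dongjin and 6th in osemf2b. Chromosome 12 ranked 9th, 10th, 9th, 10th, 8th and 11th in the same lists. The start of chromosome 7 held most local PETs in all 6 lists, from 10650 in ZS97 roots to 53527 in Dongjin.

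Within chromosome 11 the local PETs were concentrated at the far end of the window. The stretch from 2.5 to 3.0 Mb held 65.9% of them in MH63 seedlings, 54.6% in MH63 roots, 62.9% in ZS97 seedlings, 46.6% in ZS97 roots, 67.3% in Dongjin and 61.4% in osemf2b. The local PETs of chromosome 12 lay mainly from 2.0 to 2.5 Mb (34.1% to 52.0% in the 5 wild-type lists) and from 0.5 to 1.0 Mb (18.8% to 37.0%). In the first 0.5 Mb of chromosome 12 the 4 indica lists had 3 to 7 anchors and no local loop. The first anchor of chromosome 11 began at 20441 to 20643 in the indica lists, and that of chromosome 12 at 89488 to 200397. In Dongjin the first anchors began at similar positions, 59640 on chromosome 11 and 55810 on chromosome 12. Its first 0.5 Mb held no local loop on chromosome 11 and 3 with 8 PETs on chromosome 12.

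The anchors of the lists that share coordinates were merged into 263 indica regions (122 on chromosome 11 and 141 on chromosome 12) and 196 japonica regions (96 and 100). All 4 indica lists had a loop at 67 of the regions of chromosome 11 and 58 of those of chromosome 12. The same share of all 14152 indica regions is not given here, so these counts cannot be set against the genome. The region with most PETs in either set lay at 2876674 to 2914716 on chromosome 11 in indica coordinates, 38.0 kb wide, and at 2869867 to 2908400 in japonica coordinates. It held 1594 PETs in MH63 seedlings, 1045 in MH63 roots, 1293 in ZS97 seedlings, 932 in ZS97 roots, 2010 in Dongjin and 1876 in osemf2b. Per 1000000 PETs of the list, these counts were 3128, 1503, 2671 and 1739 in the indica lists, 2455 in Dongjin and 6652 in osemf2b. Seedlings were above roots in both indica varieties, and osemf2b was above Dongjin. Tags per 1000000 total tags followed the same order, at 1481 and 846 in MH63, 1238 and 961 in ZS97, 1089 in Dongjin and 3490 in osemf2b. Whether the positions in the 2 sets of coordinates are the same locus cannot be told from the files.

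The next regions of chromosome 11 by PETs lay near it, apart from one. At 2669023 to 2693990 the indica lists held 1124, 638, 862 and 614 PETs (MH63 seedlings and roots, then ZS97 seedlings and roots). The loop that joined it to the leading region over 215 kb had the most PETs of any local loop in MH63 seedlings, 189, and over 214 kb also in ZS97 seedlings, 157. The third region, at 1234496 to 1268908, held 656, 355, 576 and 642 PETs in the same order. Of these, 271, 0, 156 and 172 joined anchors inside the region itself, which MH63 roots held as 1 wide anchor. In Dongjin the loop with most PETs on chromosome 11, 286, joined 2576982 to 2597903 with 2629842 to 2646632. Over a distance of 14.7 kb, the loop with most PETs on chromosome 12 in Dongjin joined 2466237 to 2476431 with 2480712 to 2491365 and held 369. The 5 leading regions took 35.9% to 56.5% of all PETs from chromosome 11 in the wild-type lists and 28.3% to 35.1% of those from chromosome 12, so loops were spread over more regions on chromosome 12. In osemf2b both shares were higher, 78.3% and 56.4%.

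**Figure D2:**
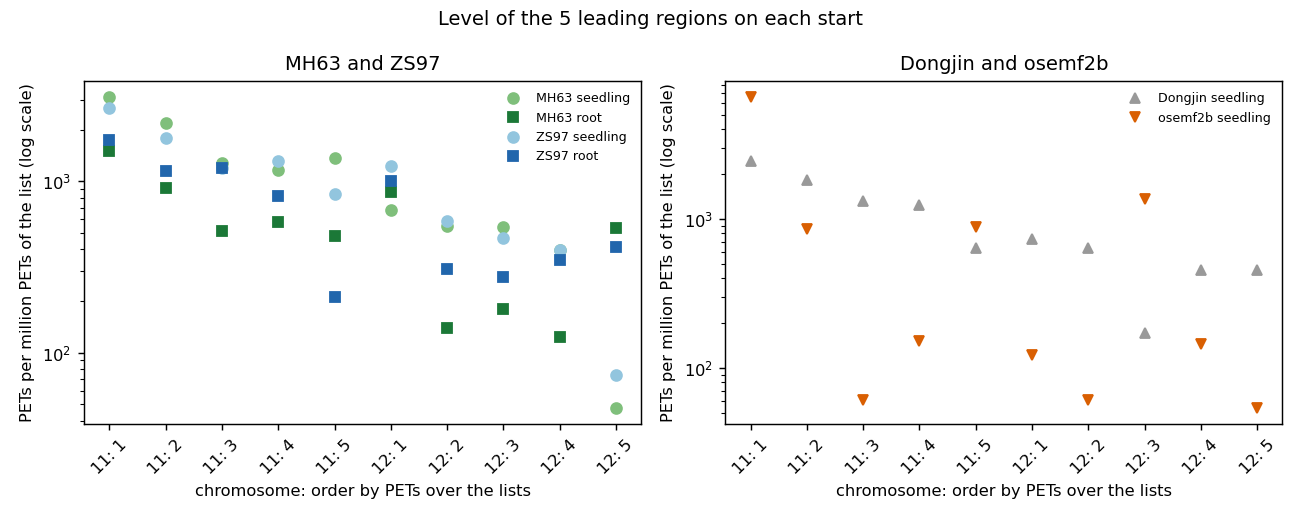
PETs per 1000000 PETs of the list (vertical axis, log scale) at the 5 regions with most PETs on each start, numbered by their PETs over the lists, for the indica lists (left) and the japonica lists (right). The first region of chromosome 11 runs from 1503 to 3128 in the indica lists and rises from 2455 in Dongjin to 6652 in osemf2b, while the fifth region of chromosome 12 is at 47.1 and 74.4 in indica seedlings and at 533 and 416 in roots.

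Loops between the starts of chromosomes 11 and 12 were few but held many PETs in 3 of the 6 lists. MH63 seedlings had 18 such loops (10.7 to 28.4) with 51 PETs. In MH63 roots there were 10 (4.80 to 18.4) with 203 PETs. ZS97 seedlings had 18 with 192 PETs, and ZS97 roots 30 (20.2 to 42.8) with 256 PETs. Dongjin had 11 (5.49 to 19.7) with 34 PETs, and osemf2b had none, a count that allows up to 3.69 loops. The 66 pairs that the 12 chromosome starts can form give the scale. By PETs, the pair of chromosomes 11 and 12 ranked 1st in MH63 roots and in ZS97 roots and 2nd in ZS97 seedlings. It ranked 17th in MH63 seedlings, 21st in Dongjin and 46th in osemf2b. The place in osemf2b was a tie for last, since many other pairs of starts had no listed loop there either. The lack of loops in osemf2b was thus not particular to this pair. The other 65 pairs had medians of 27 PETs in MH63 seedlings, 18.0 in MH63 roots, 38.0 in ZS97 seedlings, 32.0 in ZS97 roots and 25.0 in Dongjin. Their highest values were 86, 68, 195, 126 and 100. By the number of loops the pair ranked 12th, 9th, 21st, 3rd and 19th in these 5 lists, so its place rested more on PETs per loop than on loops.

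**Figure D3:**
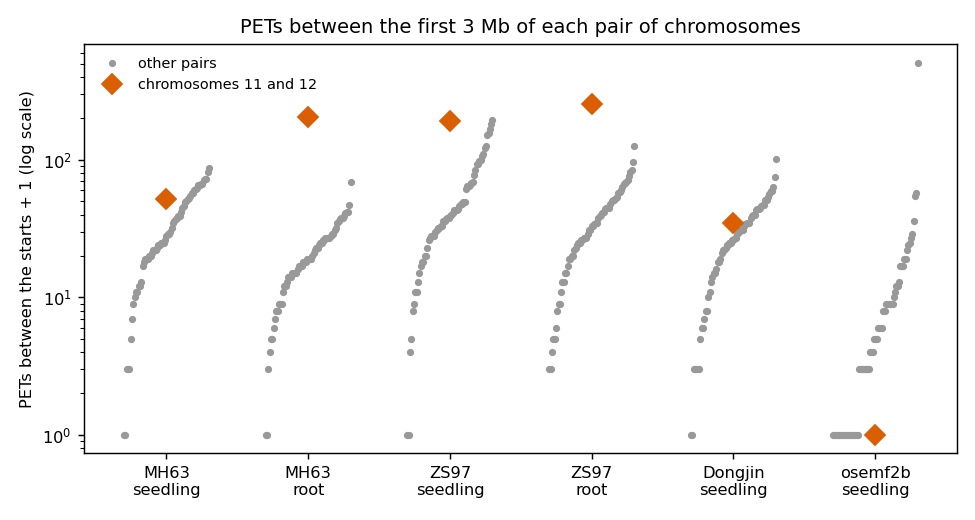
PETs of loops between the first 3 Mb of each of the 66 pairs of chromosomes, plus 1 so that 0 can be drawn (vertical axis, log scale), in each list. The pair of chromosomes 11 and 12 (diamond) lies above all other pairs (dots, in order of their PETs) in MH63 roots with 203 PETs and in ZS97 roots with 256, and within them in MH63 seedlings and Dongjin.

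These PETs have to be read beside the tags, since an anchor with more tags has more chances to be ligated. Summed over the loops between chromosomes 11 and 12, the quotient of PETs over tags was 68.5 in ZS97 seedlings and 24.2 in ZS97 roots, against 6.18 and 10.5 for loops between the starts of the other pairs. In MH63 seedlings it was 13.6 against 7.62, and in Dongjin 9.84 against 7.56. In MH63 roots it was lower than at the other pairs, 5.61 against 10.2. Only listed loops enter these values too, so they describe the lists and do not measure contact per tag over all anchors.

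The offset of a loop, its distance from the start on chromosome 12 minus that on chromosome 11, was not spread evenly. The 200-kb-wide range of offsets with most PETs held 45.1% of the PETs between the starts in MH63 seedlings (31.1% to 59.7%). It held 86.2% in MH63 roots (80.7% to 90.6%), 61.5% in ZS97 seedlings (54.2% to 68.4%) and 81.2% in ZS97 roots (75.9% to 85.8%). The mean offsets of the loops in that range, weighted by PETs, were 54.7, 62.7, 99.1 and 75.1 kb in these 4 lists, all placing the chromosome 12 anchor farther from the chromosome end. In Dongjin the leading range held 29.4% (15.1% to 47.5%), with a mean offset of -1086 kb. Among the other pairs with at least 20 PETs, taken the same way, the highest share was 67.9% in MH63 seedlings, 83.8% in MH63 roots, 60.6% in ZS97 seedlings, 41.7% in ZS97 roots and 61.9% in Dongjin. No other pair was higher in MH63 roots, ZS97 seedlings or ZS97 roots. In MH63 seedlings 7 of 44 other pairs were higher, and in Dongjin 20 of 42 were.

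**Figure D4:**
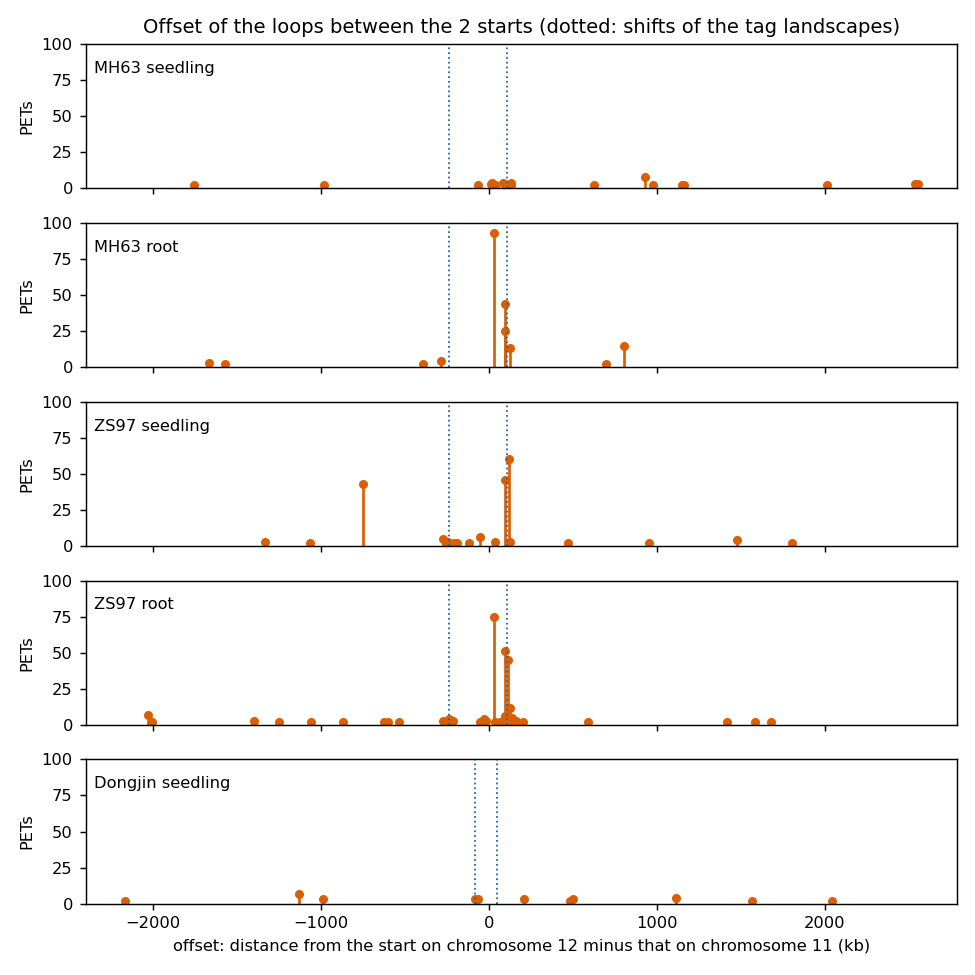
Each loop between the starts of chromosomes 11 and 12 in 5 lists, placed by its offset (horizontal axis, kb) with its PETs (vertical axis). The loops of 44 to 93 PETs in MH63 roots and of 45 to 75 PETs in ZS97 roots lie between 27.8 and 115 kb, and Dongjin has no loop above 7 PETs. Dotted lines mark the shifts at which the tag profiles of the 2 starts were most alike.

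Most of the PETs at these offsets came from one stretch on each chromosome, 17 of 23 in MH63 seedlings, 175 of 175 in MH63 roots, 112 of 118 in ZS97 seedlings and 198 of 208 in ZS97 roots. On chromosome 11 it ran from 693343 to 816628 and held 6 regions, and on chromosome 12 from 808661 to 927704 with 5 regions. Loops between the stretches held 17 PETs in MH63 seedlings (33.3% of those between the starts), 175 in MH63 roots (86.2%), 112 in ZS97 seedlings (58.3%) and 198 in ZS97 roots (77.3%). The stretches were delimited after these PETs had been seen, so the shares describe them and test nothing. Each stretch had a pair of wide domains. On chromosome 11, domain A lay at 723060 to 744483 (21.4 kb) and domain B at 791087 to 816628 (25.5 kb), with 70.1 kb between their middles. On chromosome 12, domain A lay at 808661 to 854704 (46.0 kb) and domain B at 886783 to 917410 (30.6 kb), with 70.4 kb between their middles. The A domains were offset by 97.9 kb and the B domains by 98.2 kb.

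Loops joined like domains and unlike ones. The A domains were joined by 4 PETs in MH63 seedlings, 44 in MH63 roots, 46 in ZS97 seedlings and 51 in ZS97 roots. Domain B of chromosome 11 was joined to domain A of chromosome 12, an offset of 27.8 kb, by 9, 93, 3 and 77 PETs in the same order. The B domains were joined by 25 PETs in MH63 roots and 6 in ZS97 roots, and by no listed loop in seedlings. None of the 4 indica lists had a loop between domain A of chromosome 11 and domain B of chromosome 12. A narrow region beside domain A of chromosome 11, at 716772 to 718875, was joined to domain A of chromosome 12 by 63 PETs in ZS97 seedlings and 45 in ZS97 roots and by no listed loop in MH63. The same domain was joined to 702896 to 711076 by 4 PETs in MH63 seedlings, 13 in MH63 roots and 12 in ZS97 roots. Of 60 pairs of regions linked between the starts in the indica lists, 53 appeared in 1 list, 4 in 2 lists, 1 in 3 lists and 2 in all 4, and those last 2 were the A domains with each other and domain B of chromosome 11 with domain A of chromosome 12.

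Local loops within the stretches held most PETs in MH63 roots. On chromosome 11 domains A and B were joined by 4 PETs in MH63 seedlings, 164 in MH63 roots, 12 in ZS97 seedlings and 68 in ZS97 roots. On chromosome 12 domains A and B were joined by 9, 188, 0 and 17 PETs. In MH63 roots the quotient of PETs over the product of tags was 25.0 for the local loop of chromosome 11 and 25.8 for that of chromosome 12. It was 4.55 for the A domains of the different chromosomes, 6.57 for domain B of chromosome 11 with domain A of chromosome 12 and 5.07 for the B domains. In ZS97 roots the order differed, with 40.7 and 12.1 for the local loops of chromosomes 11 and 12 and 19.8, 21.6 and 6.61 for the same joins between the chromosomes. In MH63 seedlings the local quotients were 22.8 on chromosome 11 and 47.5 on chromosome 12, from 4 and 9 PETs. In ZS97 seedlings that of chromosome 11 was 8.39. By quotient, MH63 roots thus did not lead on either chromosome.

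**Figure D5:**
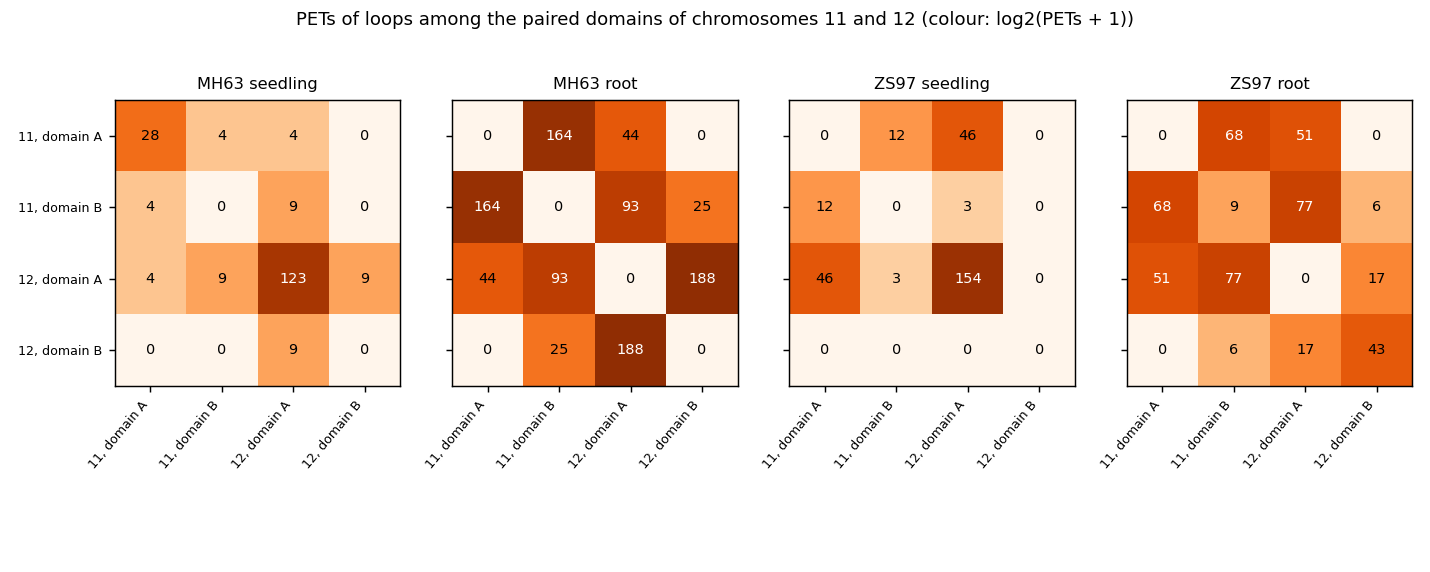
PETs of loops among domains A and B of chromosome 11 and domains A and B of chromosome 12 in the 4 indica lists (colour: log2 of PETs + 1; numbers: PETs; the diagonal counts loops between anchors inside a domain; 0 means that no loop is listed). Roots show PETs both within and between the chromosomes, with 164 and 188 within and 93, 44 and 25 between in MH63 roots.

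Except for local PETs on chromosome 12 in ZS97, the stretches held more PETs in roots. They had been picked by PETs that lay mostly in the root lists, so the choice itself favours roots. Per 1000000 PETs of the list, PETs between the stretches were 7.54 times as many in MH63 roots as in seedlings (4.58 to 13.2) and 1.60 times in ZS97 (1.26 to 2.03). Anchor widths differed here. Domain B of chromosome 11 was joined through an anchor of 25.5 kb in MH63 roots but through anchors of 1.81 and 0.927 kb in MH63 seedlings. The part of anchor width in these ratios was not tested. Local PETs on the stretch of chromosome 11 were 6.13 times (4.68 to 8.18) and 6.79 times (4.53 to 10.6) as many. On the stretch of chromosome 12 they were 1.66 times in MH63 (1.35 to 2.05) but 0.499 times in ZS97 (0.378 to 0.654). In seedlings 123 of 134 of these PETs in MH63 and all 154 in ZS97 joined anchors inside domain A, which both root lists hold as 1 wide anchor. Tags moved with most of these counts. On chromosome 11 the tags of the stretch were 227 per 1000000 total tags in MH63 seedlings, 983 in MH63 roots, 382 in ZS97 seedlings and 822 in ZS97 roots. On chromosome 12 they were 426, 1013, 476 and 853. Between varieties, seedling PETs joining the stretches were 6.93 times as many in ZS97 as in MH63 (4.14 to 12.3), and root PETs 1.47 times (1.19 to 1.81). In ZS97 seedlings 60 of the 112 came from 1 loop. Local PETs on chromosome 11 were fewer in ZS97, at 0.482 times in seedlings (0.294 to 0.772) and 0.533 times in roots (0.451 to 0.629). On chromosome 12 they were 1.21 times in seedlings (0.953 to 1.54) and 0.364 times in roots (0.283 to 0.464).

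Domain B of both chromosomes held more PETs in roots than in seedlings in both varieties. On chromosome 12 it held 24 PETs in MH63 seedlings, 371 in MH63 roots, 36 in ZS97 seedlings and 223 in ZS97 roots, and the root values were above both seedling values. Its tags per 1000000 total tags were 21.4, 248, 22.2 and 164. Domain B of chromosome 11 held 53, 462, 165 and 461 PETs, with 51.4, 481, 125 and 415 tags per 1000000. Domain A of chromosome 11 held 158, 421, 187 and 359 PETs, with 154, 329, 223 and 301 tags per 1000000. Domain A of chromosome 12 held 347, 605, 599 and 538 PETs, with 400, 711, 445 and 641 tags per 1000000. Of these PETs, 123, 0, 154 and 0 joined anchors inside the domain.

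A few loops between the starts lay away from these stretches. In ZS97 seedlings, 2530007 to 2531929 on chromosome 11 was joined to 1784192 to 1784527 on chromosome 12 by 43 PETs, at an offset of -747 kb. The chromosome 12 anchor is 0.336 kb wide with 421 tags, and no other indica list had a loop at this region. Both ZS97 lists joined 563723 to 567828 on chromosome 11 to 505911 to 514692 on chromosome 12, with 6 PETs in seedlings and 2 in roots at an offset of -55.5 kb. In ZS97 seedlings 3 loops of 2 to 5 PETs linked chromosome 11 near 0.91 Mb to chromosome 12 at offsets of -244, -254 and -273 kb, and ZS97 roots had 1 of 2 PETs at -244 kb. The loop with most PETs between the starts in Dongjin, 7, joined 2692598 to 2713818 with 1570134 to 1580191.

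The profiles of tags along the starts were also compared, in bins of 10 kb with shifts of up to 500 kb, as a description. Over the whole windows the highest Pearson correlation of log2 tags across bins was 0.22 to 0.31 in the 6 lists, at -230 to -250 kb in the indica lists and at -90 kb in the japonica lists. It ranked from 2nd in Dongjin to 16th in MH63 roots among the 66 pairs, so it was not the highest in any list. Over the first 1.0 Mb of chromosome 11 the best shift was 100 or 110 kb in the 4 indica lists (r from 0.28 to 0.46), 50 kb in Dongjin (r = 0.52) and 40 kb in osemf2b (r = 0.56). The pair ranked 19th, 3rd, 23rd and 2nd in the indica lists and 1st in Dongjin and osemf2b there. From 1.5 to 2.5 Mb the best shift was -240 kb in all 4 indica lists, -80 kb in Dongjin and -390 kb in osemf2b, with r from 0.28 to 0.36 and ranks from 11th to 33rd, which is ordinary among the pairs. The lists share anchors and neighbouring bins share domains, so these correlations are not independent of each other. Within 50 kb of the shifts of 105 and -240 kb lay 3 of 18 loops between the starts in MH63 seedlings, 4 of 10 in MH63 roots, 7 of 18 in ZS97 seedlings and 10 of 30 in ZS97 roots. Loops between the starts of other pairs fell there in 8.53%, 4.39%, 5.98% and 6.04% of cases. Within 50 kb of 50 and -80 kb lay 2 of 11 loops in Dongjin, against 9.46% for other pairs. The same tags underlie the profiles and the loops.

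Most partners of the starts lay elsewhere. Loops from chromosome 11 to chromosomes other than 12 numbered 867 in MH63 seedlings, 627 in MH63 roots, 1225 in ZS97 seedlings, 1306 in ZS97 roots, 758 in Dongjin and 155 in osemf2b. From chromosome 12 to chromosomes other than 11 there were 642, 499, 1073, 910, 698 and 112. Between 10.6% and 13.9% of them led to the first 3 Mb of the other chromosome. These loops held 2.37 to 3.17 PETs on average in the wild-type lists. The highest in MH63 seedlings joined the leading region of chromosome 11 to 6124782 to 6145022 on chromosome 1 with 28 PETs, and in Dongjin to 7137032 to 7161695 on chromosome 1 with 59 PETs. In MH63 roots domain A of chromosome 12 had the most of those from chromosome 12, 22 PETs to 9156753 to 9178902 on chromosome 1.

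In the 5 wild-type lists the 2 starts shared partners about as often as other pairs of starts did. Of the smaller set of partner regions, 23.3% were shared in MH63 seedlings, 8.88% in MH63 roots, 24.8% in ZS97 seedlings, 28.6% in ZS97 roots, 14.5% in Dongjin and 14.3% in osemf2b. The pair ranked 41st, 34th, 48th, 26th, 34th and 2nd of 66 by this share. A set of loops in Dongjin tied one narrow anchor to the far arm of the partner chromosome: 478639 to 480081 on chromosome 12, with 126 tags, had 5 loops to chromosome 11 between 18371461 and 18722646 that held 3, 13, 3, 17 and 12 PETs.

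Tissue was compared by the PETs of each region scaled on the total PETs of the list. Regions with at least 20 PETs over both lists were called higher or lower at a change of at least 2-fold with an interval that excludes 1. The PETs of a region include those between anchors inside it, which a list with 1 wide anchor there cannot hold. In MH63, 43 of 152 member regions were higher in roots and 44 lower, 28.3% and 28.9%, where 40.2% and 16.6% of all 9468 regions were. In ZS97, 31 of 161 were higher in roots and 55 lower, 19.3% and 34.2%, against 27% and 26.7% of all 9011 regions. In both varieties the starts thus had fewer regions higher in roots and more lower than the genome as a whole. The median log2 ratio of roots over seedlings was -0.21 in MH63 and -0.50 in ZS97, beside 0.55 and -0.15 over all regions. These calls depend on the scaling. Without scaling there were 53 higher and 26 lower in MH63, and the median was 0.24. On total tags there were 37 higher and 60 lower in MH63, but 105 higher and 12 lower in ZS97. In ZS97 the median over all regions moved to 1.94 on that scale. The shares called over all regions are not given on these scales, so these splits cannot be set against the genome. Of the regions in the stretches that carried the loops between the starts, 9 of 11 compared were higher in MH63 roots and 6 of 10 in ZS97 roots. None was lower. These stretches were picked by PETs that lay mostly in the root lists, and the same PETs count toward their levels. The contrast with the other members thus follows in part from the choice and tests nothing.

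Over both varieties 133 member regions could be compared, of which 21 were higher in roots in both, 23 lower in both and 0 opposite. Over all 7544 regions compared the shares were 21.0%, 10.4% and 1.99%. Several of the largest differences were at regions with a loop in 1 list. In MH63 roots 2930625 to 2933171 on chromosome 11 held 99 PETs and 824 tags, and no other indica list had a loop there. In MH63 seedlings 2575479 to 2578356 on chromosome 11 held 123 PETs and 474 tags, again in that list alone. In ZS97 roots 2926159 to 2934147 on chromosome 12 held 92 PETs and 995 tags and was in no other list. Regions with loops in both tissues also differed: 2437345 to 2445078 on chromosome 11 held 232 PETs in MH63 seedlings and 21 in MH63 roots, 15.1-fold lower in roots (9.63 to 24.8), and 222 and 103 in ZS97. At 920702 to 923429 on chromosome 12, the edge of the looped stretch, 2 PETs in MH63 seedlings stood against 68 in MH63 roots, 16.6-fold higher (6.64 to 210), and 36 against 44 in ZS97.

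Between varieties, member regions were more often higher in ZS97. In seedlings 52 of 145 were higher in ZS97 and 3 lower, 35.9% and 2.07%, against 29.1% and 10.7% of all 7935 regions. In roots 39 of 149 were higher and 11 lower, 26.2% and 7.38%, against 16.1% and 21.8% of all 9785. The median log2 ratio of ZS97 over MH63 was 0.66 in seedlings and 0.42 in roots, beside 0.43 and -0.05 over all regions. On chromosome 12 30 of 69 were higher in ZS97 seedlings and none was lower, and on chromosome 11 22 of 76 were higher and 3 lower. Scaling on total tags turned the seedling split to 10 higher and 44 lower and the root split to 110 higher and 6 lower. The split over all members thus depends on the scale, and the shares called over all regions are not given on total tags. A change of scale moves members and genome alike, so the members' place above the genome median is the same on every scale by construction. On total tags the medians were -0.63 against -0.86 in seedlings and 1.68 against 1.20 in roots. Among single regions, 2903729 to 2904837 on chromosome 12 held 47 PETs in ZS97 seedlings and 4 in MH63 seedlings, 12.4-fold higher (4.52 to 47.3), and 14 and 8 in the roots. At 1710463 to 1717308 on chromosome 12, ZS97 roots held 42 PETs and MH63 roots 6, 9.08-fold higher (3.84 to 26.1), and the seedlings 82 and 43.

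In osemf2b most regions of both starts had fewer PETs than in Dongjin. Of 126 member regions compared with Dongjin, 5 were higher in osemf2b and 100 lower, 3.97% and 79.4%, against 5.19% and 74.0% of all 8032 regions. The median log2 ratio was -2.13, beside -1.88 over all regions. Of those 100, 56 had no loop in the osemf2b list, which held 15913 loops in all against 94432 in Dongjin. The same share over all regions is not given here, so the 56 cannot be set against the genome. Local PETs of chromosome 11 fell from 5142 to 704, a scaled ratio of 0.398 (0.367 to 0.430), and those of chromosome 12 from 1963 to 54, a ratio of 0.0799 (0.0598 to 0.105). PETs from chromosome 11 to the rest of the chromosome went from 1509 to 1087, a ratio of 2.09 (1.93 to 2.26), on 22 loops in place of 189. The tags at member anchors of osemf2b were 202482 on chromosome 11 and 70301 on chromosome 12, beside 197923 and 117958 in Dongjin. Of those on chromosome 11, the leading region held 108841 in osemf2b and 42933 in Dongjin. These counts are not scaled on total tags, which were 31200000 and 39400000.

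Among the regions that fell, 2676409 to 2684433 on chromosome 11 held 358 PETs in Dongjin and 2 in osemf2b, 41.1-fold lower (16.9 to 511), with 2721 and 13 tags. The third region of chromosome 11, at 2629842 to 2646632, held 1074 and 17 PETs, 21.8-fold lower (13.5 to 37.5), with 7914 and 114 tags. On chromosome 12 2337247 to 2344157 held 197 and 2 PETs, 22.6-fold lower (9.27 to 282), with 3651 and 57 tags. Tags fell at each of these 3 regions. At 752002 to 765854 on chromosome 12 PETs were 373 in Dongjin and 41 in osemf2b, while tags were 9719 and 13162.

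The 5 regions higher in osemf2b were 4 near the far end of the chromosome 11 window and 1 on chromosome 12. The leading region of chromosome 11 was 2.71-fold higher (2.54 to 2.89), with 108841 tags against 42933. Its loops with most PETs in osemf2b led out of the window, with 444 PETs to 3850920 to 3911197 and 289 PETs to 3701875 to 3739128, both on chromosome 11, and with 226 PETs to 27959002 to 27982896 on chromosome 6. The quotients of these loops over the product of tags were 1.28, 1.24 and 1.24. Loops of anchors with many tags can be listed at low quotients, so these values do not measure strength per tag. Beside it, 2852502 to 2857900 held 105 PETs against 133 in Dongjin, 2.29-fold higher after scaling (1.76 to 2.98), and the narrow regions 2840967 to 2841374 and 2842767 to 2843759 held 32 and 35 PETs with no listed loop in Dongjin. On chromosome 12, 1566911 to 1580944 held 383 PETs against 141, 7.89-fold higher (6.49 to 9.64), with 13512 tags against 4308. Of these, 207 joined it to 5537972 to 5674372 on chromosome 1, and 99 to 25104863 to 25178169 on chromosome 12.

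Local loops recurred between lists and loops to other chromosomes rarely did. Of the local member loops of the first list, 44.3% (39.1% to 49.5%) of those of MH63 roots were found again in MH63 seedlings and 30.3% (25.6% to 35.2%) of those of ZS97 roots in ZS97 seedlings. Of those of ZS97 seedlings, 60.8% (54.9% to 66.4%) were found in MH63 seedlings, and of those of ZS97 roots 54.6% (49.4% to 59.7%) in MH63 roots. For osemf2b 84.2% (72.1% to 92.5%) were found in Dongjin. At the other 10 chromosome starts the same shares were 42.0%, 38.0%, 64.2%, 61.1% and 84.4%. The share was higher on chromosome 11 than on chromosome 12 in all 5 comparisons, for example 52.4% (45.7% to 59.0%) against 30.4% (22.8% to 38.9%) between the MH63 tissues, but for osemf2b the 84.4% and 83.3% rested on 45 and 12 loops. Of member loops between chromosomes 0.244% to 1.26% were found again, beside 0.289% to 0.956% of all loops between chromosomes.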

How the data were processed

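Rice tissue was crosslinked with formaldehyde and ethylene glycol bis(succinimidylsuccinate), and H3K27me3 ChIA-PET libraries were sequenced as paired ends, per the labels' protocols. The authors deposited 1 loop list per group, without a header. Read from the values, its columns hold 2 anchors, a PET count, the distance, the tag count of each anchor, a p-value, a false discovery rate (FDR, at most 0.0499) and their −log10 (not used), as deposited by the authors. For the aligner, the loop caller, the genome builds and any filter on reads that match several places, no source used here names them.

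Loops with an anchor whose middle lay below 3 Mb on chromosome 11 or 12 were kept. Total tags were recovered from the deposited p-values. Regions are anchors of lists with shared coordinates, merged on overlap of 1 bp. Shared loops overlap by 1 bp at both anchors. Named regions are the 5 with most PETs per start, and the 3 most changed per direction and comparison. Named loops are the 3 with most PETs between the starts and on each start, and others were chosen after their values were seen. Coordinates are 1-based. The members and lists were chosen with earlier results of these data known, and the looped stretches and profile shifts after seeing the values. No p-value was computed. The calls of higher and lower regions were tested on simulated counts, and the leading offset range on simulated positions. Python 3.11.15, numpy 2.4.6, pandas 2.3.3, scipy 1.17.1 and matplotlib 3.10.9 were used.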

Additional observations from a re-analysis of the deposited data

How the results depend on the processing

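Of 108 alternative values, 53 stayed and 55 moved. A share stayed if it lay within the counting interval of the reported share, and a count if it was within 1.5 times of the reported count. Median log2 ratios over the member regions changed sign with the scaling: on total tags from 0.66 to -0.63 for ZS97 over MH63 seedlings and from -0.50 to 1.59 for ZS97 roots over seedlings, and without scaling from -0.21 to 0.24 for MH63 roots over seedlings. Loops between the starts numbered 9 in MH63 seedlings, 9 in ZS97 seedlings, 18 in ZS97 roots and 3 in Dongjin at a deposited FDR below 0.01. With at least 3 PETs they numbered 7, 10, 14 and 7 in these lists, and with a window of 2 Mb 8 in MH63 seedlings, 6 in MH63 roots, 10 in ZS97 seedlings and 2 in Dongjin. The share of PETs in the leading offset window was 29.4% in MH63 seedlings and 75.4% in ZS97 roots at a half-width of 50 kb, and 69.8% in ZS97 seedlings at 200 kb. At a fixed offset of 0 it was 79.8% in MH63 roots, 28.6% in ZS97 seedlings and 56.6% in ZS97 roots. With a window of 2 Mb it was 65.5% and 91.1% in MH63 seedlings and roots, 89.4% and 89.7% in ZS97 seedlings and roots and 60.0% in Dongjin. A tolerance of 30 kb around the profile shifts, added after seeing the data, kept 3, 3, 6, 7 and 2 loops. At the stricter FDR the share in the offset window was 88.3% in ZS97 roots and 75.0% in Dongjin.

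Without scaling, 53 member regions were higher and 26 lower in MH63 roots than seedlings, 22 higher and 22 lower in ZS97 than MH63 roots, and 3 higher in osemf2b. On total tags the splits of higher and lower were 105 and 12 for ZS97 roots over seedlings, 10 and 44 for ZS97 over MH63 seedlings, and 110 and 6 for the roots, with 3 higher in osemf2b. With regions listed in both lists only, 25 were higher in MH63 roots and 8 in ZS97 roots, 0 lower in ZS97 than MH63 seedlings, and 3 higher and 44 lower in osemf2b. With at least 50 PETs the splits were 18 and 28 for MH63 roots, 16 and 26 for ZS97 roots, 26 and 1 for ZS97 over MH63 seedlings and 3 and 63 for osemf2b, with 6 lower in ZS97 than MH63 roots; fewer regions are tested there. At the stricter FDR the shared share of loops between chromosomes was 0.490% for ZS97 roots in seedlings, 0% for ZS97 in MH63 seedlings, 0.588% for the roots and 0% for osemf2b, and that of local loops 68.1% for ZS97 in MH63 seedlings. Beyond fewer regions or loops, the cause of these moves was not tested. The shares of all regions called are not given at these settings, so these splits describe the members only.

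No paired analysis was possible because each group has 1 list for both replicates, and leaving out a replicate was not run for the same reason. Most loops hold 2 PETs, which limits what single loops between chromosomes can show.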
